A study of Mus musculus with 5 samples.

Results

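Npas4 encodes a transcription factor that neurons make after activity, and the binding sites of HSF1 at this gene are described here. The members are all peaks of both deposited HSF1 peak lists whose summit lies inside the annotated gene (GRCm38, chromosome 19, 4984353 to 5003439) or within 50 kb of it. There were 5 such peaks among 6962 in all: 5 of the 3646 peaks in the list from NMDA-treated neurons and 0 of the 3316 peaks in the list from control neurons. The members were chosen from these lists, so their number, position and signal are given as a description, without a test.

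The data come from HSF1 chromatin immunoprecipitation and sequencing (ChIP-seq) in wild-type primary cortical neurons, prepared from Swiss-Webster mice at embryonic day 16 and cultured to day 13 in vitro. Control neurons received no treatment (2 libraries). NMDA neurons received 50 µM NMDA for 10 min, and were collected after a further 20 min without drug (2 libraries). One input library of sheared chromatin came from untreated neurons, so the NMDA libraries had no input from NMDA-treated neurons. The labels call the replicates biological and do not say whether they came from separate litters. Each condition is represented by 1 peak list, so no value below has a replicate error. Sequencing depth is unknown, and the neuronal identity of the cells cannot be checked from lists of binding sites.

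HSF1 is the main transcription factor of the heat shock response. It binds DNA as a trimer at heat shock elements, which are runs of the bases GAA repeated in alternating orientation. NPAS4 belongs to the basic helix-loop-helix PAS family, is made mainly in neurons, and its gene is transcribed within minutes of calcium entry through NMDA receptors or voltage-gated channels. The protein pairs with ARNT or ARNT2, binds regulatory regions of activity-dependent genes such as Bdnf, and shapes inhibitory synapses. Genes of this rapid class are called immediate early genes. The series as a whole concerns HSF1 and TOP2B, a topoisomerase that cuts both DNA strands.

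The position of the 5 peaks depends on where the gene is taken to begin. Npas4 is transcribed from the minus strand, so upstream means higher coordinates. The RefSeq promoter table for GRCm38.p6 lists 1 start for it, at position 4989971, and the gene runs 5619 bp from there to its 3′ end at 4984353. The annotated interval reaches a further 13468 bp upstream of that start. The annotation pairs the gene with 1 curated and 3 predicted transcripts, and which of them reaches the upper boundary was not examined. All 5 NMDA summits lay in the upstream 13468 bp. Between the start and the 3′ end there were 0 summits in either list, and the flanks of 50 kb held 0 as well. The cluster was therefore inside Npas4 by the annotated interval and upstream of Npas4 by its listed start.

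The sequence next to that start is shown because all distances here are measured from it. These are the 200 bases before the start (RefSeq, GRCm38.p6, minus strand, chr19:4989972-4990171), in which the capitals mark matches to 7 bases of the cAMP response element, the site of the activity-regulated factor CREB. For comparison, the second sequence comes from the NMDA peak of highest fold among those with a summit in a promoter window and a heat shock element before the start. The divergent mitochondrial chaperonin genes Hspd1 and Hspe1 share this peak, and the Hspd1 side is shown (150 bases before its start, minus strand, chr1:55087933-55088082), in which the capitals mark the heat shock element.
Npas4: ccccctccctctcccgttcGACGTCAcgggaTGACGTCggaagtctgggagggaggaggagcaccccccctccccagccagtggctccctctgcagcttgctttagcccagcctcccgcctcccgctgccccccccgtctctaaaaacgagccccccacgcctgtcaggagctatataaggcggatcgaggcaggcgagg
Hspd1: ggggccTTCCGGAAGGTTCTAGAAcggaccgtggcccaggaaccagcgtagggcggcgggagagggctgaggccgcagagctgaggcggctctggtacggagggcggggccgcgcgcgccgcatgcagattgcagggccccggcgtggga

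The Hspd1 stretch lay under an NMDA peak of 13.98-fold enrichment (55087639 to 55088459), with the summit 135 bp upstream of the start and the element beginning 144 bp upstream. No NMDA or control peak overlapped the Npas4 stretch. Its nearest peak began 2873 bp upstream of the start. The element of 3 units, meaning TTC and GAA in alternation with 2 free bases between neighbours, was searched on both strands in windows of 300 bases, from 250 before to 50 after each start. It was in 198 of 32619 windows (0.607%), in 13 of the 107 windows that held an NMDA summit (12.1%), and in 6 of the 123 that held a control summit (4.88%). In 8 of those 13 a whole element lay before the start, and the Hspd1 stretch was chosen among these 8. Neighbouring starts of 1 gene share bases, so these windows are not independent. The Npas4 window held no match to it, nor to the element of 2 units (TTCNNGAA or GAANNTTC, in 15.1% of windows). The whole cAMP response element TGACGTCA (1.80% of windows), the AP-1 site TGANTCA (7.85%) and the NPAS4 core TCGTG (16.1%) were likewise without a match there. The 7 bases TGACGTC, chosen after the sequence had been seen, matched at 181 and 169 bp upstream of the start, once on each strand, and were in 3.23% of windows. The sequence under the 5 peaks was not analysed here, so whether they hold heat shock elements is not stated.

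The 5 peaks are numbered from the start outward. Fold enrichment is the authors' ratio of ChIP signal at the summit over background, and the q value is their adjusted peak p, given as −log10. Peak 1 (4992844 to 4993128) was 285 bp wide, with its summit 3021 bp upstream of the start, 2.90-fold enrichment and a −log10 q of 2.41. Peak 2 (4993814 to 4994370) was 557 bp wide, with its summit 4039 bp upstream, 5.81-fold enrichment and a −log10 q of 25.8. Peak 2 was the strongest of the cluster by both measures, and peak 1, its nearest neighbour, was the weakest.

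Peak 3 (4996216 to 4996688) was 473 bp wide, with its summit 6369 bp upstream, 3.87-fold enrichment and a −log10 q of 7.21. Peak 4 (4999433 to 4999704) was 272 bp wide, with its summit 9591 bp upstream, and carried the same fold and the same q as peak 3. Peak 5 (5002002 to 5002570) was 569 bp wide, with its summit 12136 bp upstream, 3.26-fold enrichment and a −log10 q of 4.11. It lay 1332 bp from the upper annotated boundary of the gene. Fold fell outward from peak 2 to peak 5, apart from the tie of peaks 3 and 4.

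**Figure D1:**
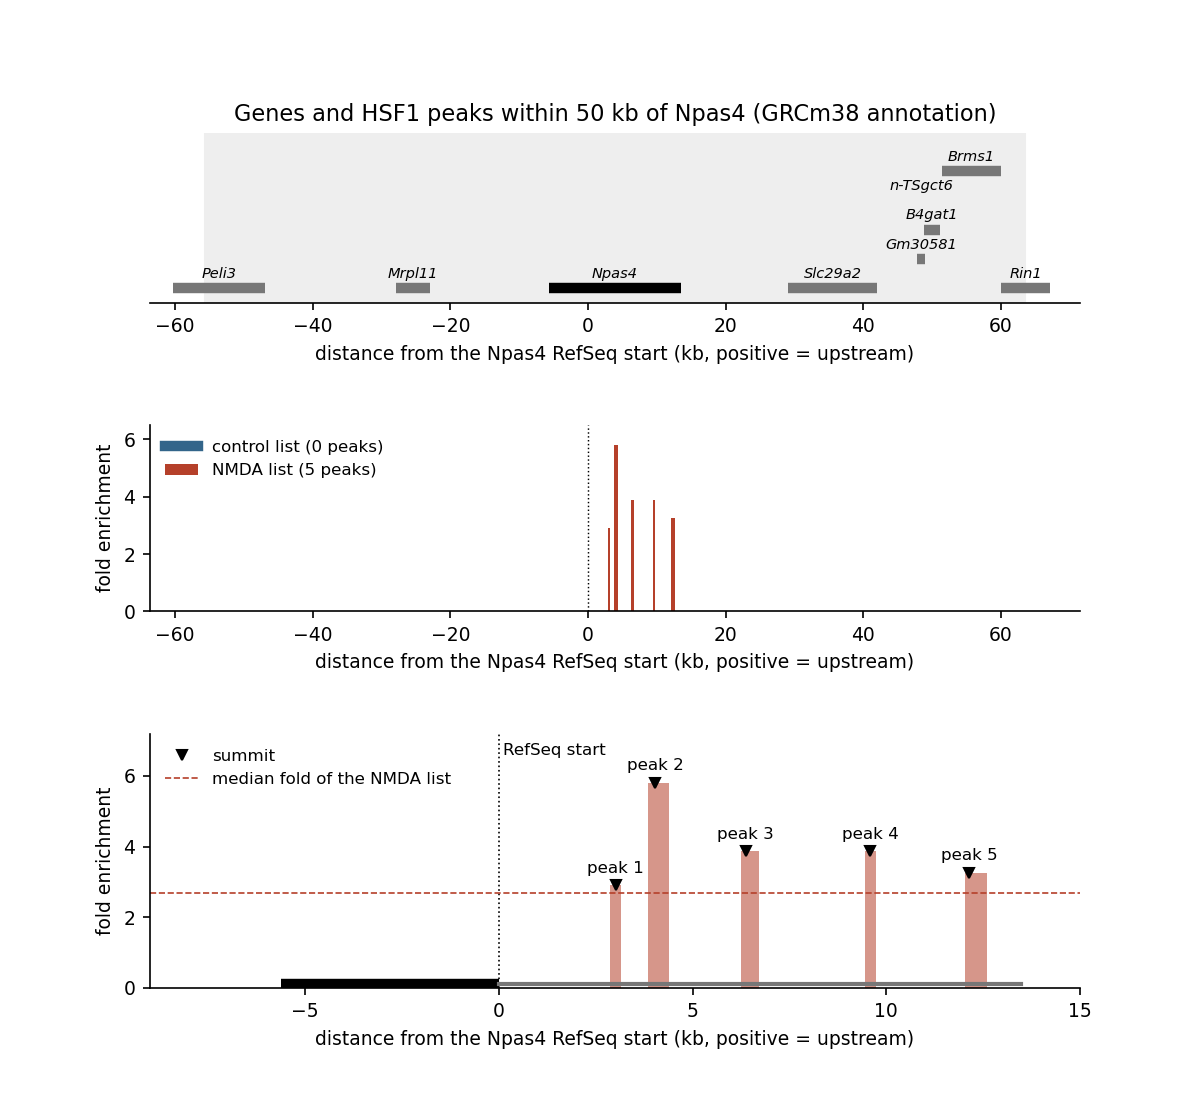
Genes within 50 kb of Npas4 (top, grey band), peaks of both lists over the same stretch (middle) and the 5 NMDA peaks enlarged (bottom). The x axes give the distance from the RefSeq start in kb, positive upstream, and the y axes the authors' fold enrichment. Bar widths in the lower panels are peak widths, triangles are summits, the black bar runs from the start to the 3′ end and the grey line is the rest of the annotated interval. All 5 peaks lie 3021 to 12136 bp upstream of the start, and the control list has none.

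The summits were unevenly spaced. Neighbouring summits were 1018, 2330, 3222 and 2545 bp apart in order from the start, a 3.17-fold range, with a median of 2438 bp. The gaps between the edges of neighbouring peaks were 685, 1845, 2744 and 2297 bp. All 5 summits fitted into 9115 bp. The peaks covered 2156 bp, or 22.2%, of the 9727 bp from the first edge to the last, and were listed as separate sites. Both lists are in narrowPeak layout, and whether a broader domain lies here was not examined. For scale, the median distance between neighbouring summits on a chromosome was 402 kb in the NMDA list, and 52 of 3625 neighbouring distances (1.43%) were at most as long as the longest one here.

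Against the NMDA list as a whole, the members ranged from ordinary to strong. All 5 exceeded the list's median fold of 2.69, and their own median was 3.87. Peak 2 ranked 68 of 3646 by fold, peaks 3 and 4 shared rank 201 with 16 other peaks, and peak 5 ranked 492. Peak 1 shared its value of 2.90 with 251 other peaks, from rank 1066. Ties are common, as the NMDA list holds 467 distinct fold values for its 3646 peaks. All 5 had a −log10 q of at least 1.3, as did 2782 of the 3646 peaks in the list, so passing this cut is common. Of the 5, 1 reached 4-fold, peak 2, as did 182 of the 3646.

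Width did not follow fold. Peaks 2, 3 and 5 were wider than the list's median of 303 bp, and peaks 1 and 4 were narrower. Peak 5 ranked 157 by width although it was the second weakest. Peaks 3 and 4, equal in fold, differed by 201 bp in width, while the 18 peaks of the list with that fold ranged from 217 to 585 bp. The summits of peaks 1 and 4 lay near the middle of the peak, at 51.9% and 47.4% of its width. Those of peaks 2, 3 and 5 lay toward the edge nearer to the start, at 35.2%, 26.2% and 18.5%.

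**Figure D2:**
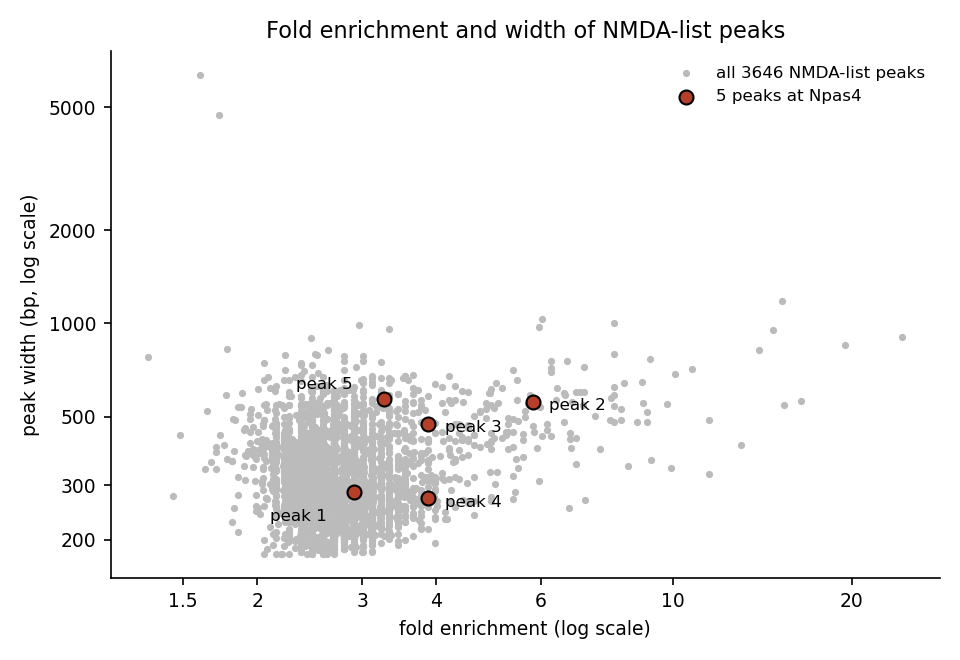
Fold enrichment (x, log scale) against peak width in bp (y, log scale) for all 3646 NMDA-list peaks (grey) and the 5 peaks at Npas4 (red). Peak 2 stands at 5.81-fold, and the vertical stripes are the tied fold values of the list.

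The cluster stood alone on its part of chromosome 19. Wide distances are common, as neighbouring summits were a median of 402 kb apart in the NMDA list and 456 kb in the control list. The NMDA list held 97 peaks on this chromosome, so 5.15% of them lay in this stretch of 9115 bp. The nearest NMDA summits beyond 50 kb were 173 kb below the gene, with 3.01-fold enrichment, and 485 kb above it, with 2.22-fold. The nearest control summit was 847 kb above the gene, with 3.12-fold enrichment, and the control list held none on chromosome 19 below it. An empty control list at a gene is common: 6.88% of the 21631 protein-coding genes had at least 1 control summit inside and 19.0% had at least 1 inside or within 50 kb. Having any NMDA summit was similarly uncommon, at 6.56% inside and 17.6% inside or within 50 kb. At least 5 were inside 19 genes (0.0878%). Of the 29 genes with at least 5 inside or within 50 kb (0.134%), 5 had 0 control summits (0.0231%): Npas4 and its neighbours Mrpl11, Slc29a2, B4gat1 and Brms1, which reach the same 5 peaks.

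None of the neighbouring genes held a summit of either list. On the 3′ side of Npas4, Mrpl11, which encodes a mitochondrial ribosomal protein, lay 26.0 kb from the nearest summit, and Peli3, which encodes a ubiquitin ligase of the Pellino family, lay 49.9 kb away. On the upstream side the closest gene was Slc29a2, a nucleoside transporter gene on the plus strand (5019057 to 5031972), whose nearer boundary was 16950 bp from the summit of peak 5. Slc29a2 and Npas4 are divergently transcribed, and the 5 peaks lay between their listed starts. Beyond it, B4gat1, a glycosyltransferase gene, was 36.7 kb away, Brms1, a transcriptional corepressor gene, 39.3 kb, and Rin1, which encodes a Ras effector, 47.9 kb. The noncoding genes of the region, Gm30581 and a serine tRNA gene, were 35.7 and 36.2 kb away. For all 5 summits Npas4 was the nearest gene.

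Such a row of peaks upstream of a start was rare in either list. The window of 15 kb was not among the planned measures and takes in all 5 members, so the counts are a description. Within 5 kb upstream of Npas4 there were 2 NMDA summits. Within 15 kb upstream, 851 of 32619 listed starts (2.61%) had at least 1 NMDA summit and 33 (0.101%) had at least 2. At least 3 were found at 1 start (0.00307%), that of Npas4 with its 5, and every other start had at most 2. In the control list 1016 starts (3.11%) had at least 1 summit, 26 (0.0797%) at least 2, and the highest number was 3, at 1 start (0.00307%). The starts come from 26794 genes, and genes without a listed start were not counted.

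The compactness of the cluster was compared with that of all other groups of summits. When summits at most 10 kb apart were joined, the NMDA list gave 3453 single summits, 83 pairs, 3 groups of 3 and 2 larger groups: 13 summits at Top2b and 5 at Npas4. Every run of 5 consecutive summits on a chromosome was then ranked by its span. The length of 5 equals the number of members and the ranking was not planned, so the rank describes how compact the chosen members are. Of 3564 runs in the NMDA list, whose median span was 2243 kb, the run at Npas4 was the sixth shortest (rank 6). The 5 shorter ones were overlapping runs inside Top2b, and the shortest run outside both genes spanned 53.1 kb, 5.83 times as far. The control list had 5 runs at most as short as that of Npas4, of which 3 lay in Top2b. The other 2 belonged to a group of 6 summits on chromosome 17 (39843317 to 39848597) with fold values from 1.25 to 1.55, below the lowest at Npas4.

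**Figure D3:**
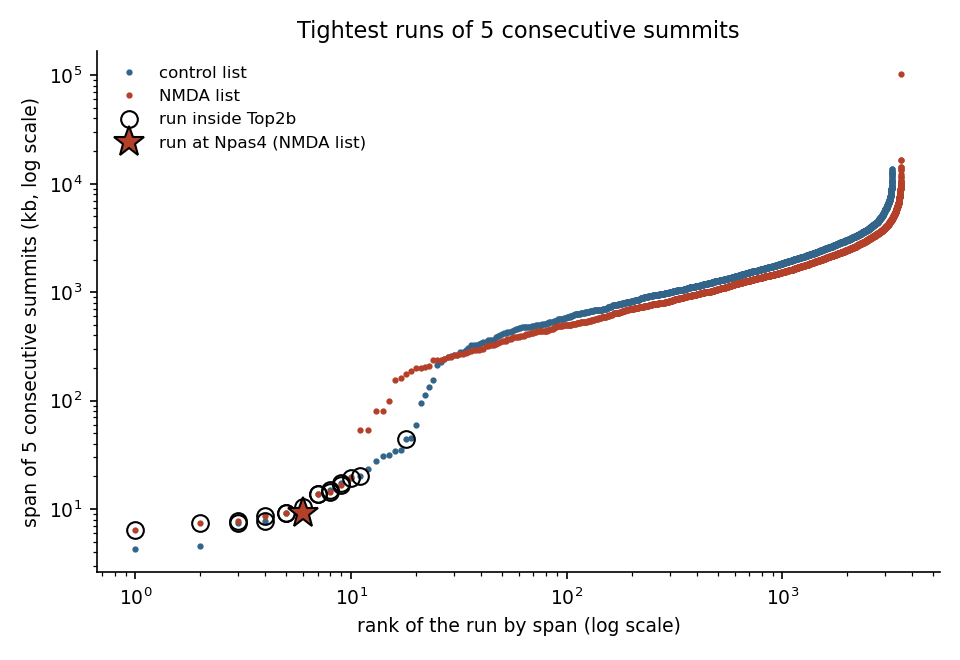
Span in kb (y, log scale) of every run of 5 consecutive summits, ordered by span (x, log scale), in the control list (blue) and the NMDA list (red). Circles mark runs inside Top2b and the star marks the run at Npas4, which spans 9.12 kb in the NMDA list and has no counterpart in the control list.

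The cluster most like it, at Top2b, differed in the control list. Top2b held 13 summits in each list, whereas Npas4 held 5 and 0. The median spacing was 2667 bp at Top2b and 2438 bp at Npas4 in the NMDA list. The median fold was 5.42 and 3.87, with a highest value of 11.5 at Top2b, and the median width was 342 and 473 bp. Of the 13 NMDA peaks at Top2b 10 overlapped a control peak, and of the 5 at Npas4 0 did. The 0 follows from the lack of control peaks there. The share of overlapping peaks over the whole NMDA list is not given here, so 0 of 5 has no background. Each list is 1 set of values, so the differences between the 2 genes could not be tested against replicate error. Outside both genes, 175 of 3628 NMDA peaks (4.82%) had another summit within 10 kb, as did 13 of the 170 that reached 4-fold (7.65%), and 0 of the 3628 had 3 or more others.

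Among genes with at least 3 NMDA summits inside, Npas4 was the shortest. At least 3 were inside 80 genes (0.37%), whose median length was 578 kb. Npas4 spans 19.1 kb and the next shortest, Cpeb2, 64.4 kb, while the median protein-coding gene spans 17.3 kb. Its density of 26.2 summits per 100 kb rests on the annotated interval, since from the listed start to the 3′ end there were none. Of the 80 genes 20 had 0 control summits (0.0925% of all protein-coding genes). By density, the 5 of these most like Npas4 were Zeb2 (2.24 summits per 100 kb), Pdlim5 (1.92), Rps6ka5 (1.70), Ralgapa1 (1.37) and Syt1 (0.779). Npas4 exceeded the densest of them 11.7 times. In Zeb2, a zinc finger repressor gene, the 3 summits were 35.3 and 80.3 kb apart, with fold values from 2.37 to 2.58. The closest pair among these 5 genes, in the kinase gene Rps6ka5, was 6.74 kb apart, wider than any spacing at Npas4. The cutoff of 3 leaves out Pou3f2, with 2 NMDA and 0 control summits inside. Pou3f2 was shorter than Npas4, at 6.27 kb, and denser, at 31.9 summits per 100 kb.

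Other immediate early genes were read from a list of 37, Npas4 included. In or within 10 kb of the gene, 7 of 37 (18.9%) had an NMDA summit, against 9.41% of all protein-coding genes, and 9 of 37 (24.3%) had a control summit, against 10.3%. The 37 genes were chosen with earlier results of these data known, so these shares are a description. Npas4 itself was chosen from the peak lists, and without it 6 genes had an NMDA summit. In both lists 3 genes had one, and 24 had none in either. Of the 12 NMDA peaks at these genes 5 were those of Npas4 and 2 were those of Egr1, a zinc finger transcription factor gene. The remaining 5, at Fosb, Egr2, Homer1, Rheb and Plk2, were single peaks from 2.56-fold to 3.01-fold. The 10 control peaks ranged from 2.67-fold to 3.18-fold, and Plk2, a kinase gene, had 2 of them.

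Egr1 had 2 NMDA peaks. Both lay outside the annotated gene (chromosome 18, 34861207 to 34864956), on the side of lower coordinates. The stronger, at 34855142 to 34855786, had 8.87-fold enrichment and a summit 5729 bp from the gene. The weaker, at 34860137 to 34860657, had 3.01-fold enrichment and a summit 692 bp away. The control list held none within 50 kb of Egr1, as at Npas4. Egr1 and Npas4 were the 2 genes of the 37 with more than 1 NMDA peak.

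**Figure D4:**
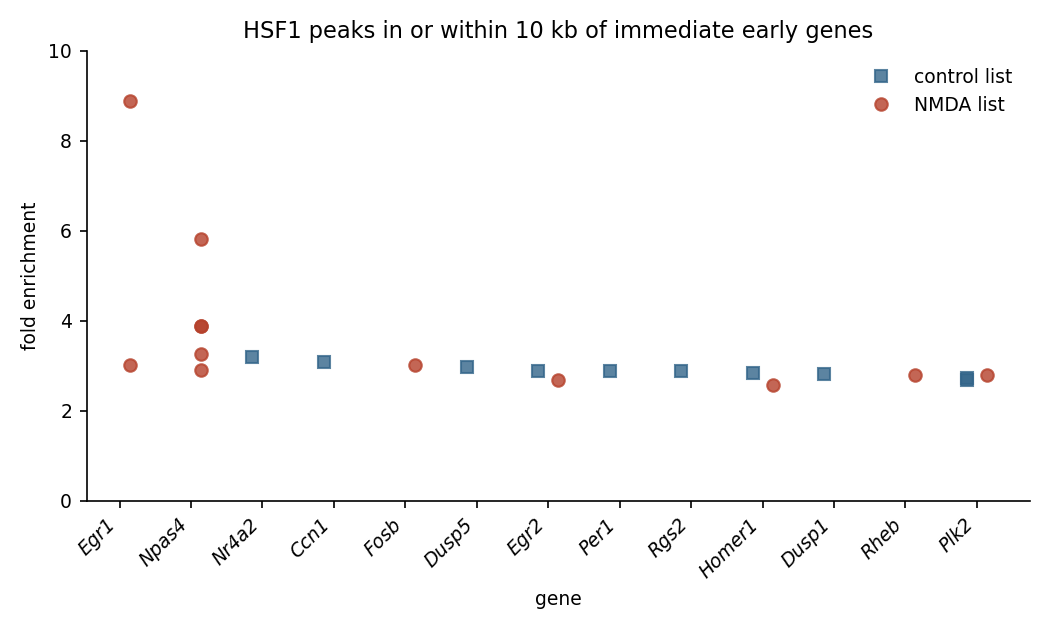
Fold enrichment (y) of each peak in or within 10 kb of the immediate early genes that had one (x), from the control list (blue squares) and the NMDA list (red circles). The NMDA peaks of Egr1 reach 8.87-fold and those of Npas4 5.81-fold, while the control peaks stay between 2.67-fold and 3.18-fold. Peaks 3 and 4 of Npas4 coincide.

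At most of the other immediate early genes the summits lay closer to a listed start than any summit at Npas4. Egr1 has no listed start and is left out here. The exceptions were the NMDA summit of Rheb and the control summits of Nr4a2 and Dusp1, at 10576, 9152 and 4473 bp downstream. Those of Rheb and Nr4a2 lay inside the gene, as did all 5 at Npas4 by its annotated interval. The Dusp1 summit was 1592 bp beyond the far end of that gene. The NMDA summit of Egr2 was 4 bp upstream of its nearest listed start, that of Plk2 413 bp upstream and that of Homer1, a synaptic scaffold gene, 1839 bp upstream. The Fosb summit was 1271 bp and the Rheb summit 10576 bp downstream. Control summits were found at Egr2, Nr4a2, Dusp1, Dusp5, Ccn1, Homer1, Per1, Rgs2 and Plk2. Of these, 3 lay upstream of the nearest start: Dusp5 at 415 bp, Plk2 at 462 bp and Rgs2 at 2135 bp. The NMDA peak of Plk2 (110394488 to 110394793 on chromosome 13) overlapped that control peak. Fos, Jun, Junb, Nr4a1 and Arc had no summit of either list within 10 kb.

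The partners and a known target of NPAS4 were counted in the same way. Arnt and Arnt2, which encode its dimerization partners, had 0 summits in both lists within 50 kb. Bdnf, the neurotrophin gene, had 0 inside or within 10 kb, and 1 NMDA summit of 3.00-fold within 50 kb. In that window 17.6% of protein-coding genes had 1 or more NMDA summits and 19.0% had 1 or more control summits. So few genes cannot be placed above or below these shares.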

How the data were processed

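The 2 deposited lists in narrowPeak layout, 1 per condition, hold for each peak a deposited score, a fold enrichment (a ratio), a −log10 q, and the summit offset. The submitters' processing notes name FastQC, Trimmomatic, BWA, SAMtools and MACS2, without versions, and the builds mm10 and GRCm38.p6. The merging of replicates is not given in the sources. Each list was assigned to the condition in its name.

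Summits were placed against the RefSeq GRCm38.p6 gene table (21631 protein-coding genes, autosomes and X) and a table of 32619 starts with sequences, with Python 3.11.15 and pandas 2.3.3. Starts were taken from windows of 250 bases before to 50 after. Peaks overlapping by at least 1 bp were called shared. Counting was tested on simulated data. No test was made, because members and lists were chosen with earlier results of these data known. Named were all region peaks and genes, the immediate early genes with a peak, ARNT partners, Bdnf, and the 5 genes of highest NMDA summit density with at least 3 NMDA and 0 control summits. Egr1 distances, Cpeb2, Pou3f2 and the immediate early genes named as lacking a peak were chosen after their values were seen. The planned search of peak sequences was not run. Alternatives covered flank, q, fold, overlap and joining distance.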

Additional observations from a re-analysis of the deposited data

How the results depend on the processing

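Under other settings 25 of 32 values stayed within 1.5 times the reported one, or at 0 where it was 0. So did 5 of 9 under settings chosen after the data were examined. Counts of 0 for control and shared peaks are among the 25. Stricter filters, a smaller flank or other rules for sharing could not have raised them. The 5 NMDA and 0 control peaks were the same with flanks of 20 and 100 kb, a −log10 q of at least 1.3 and placement by overlap. The q cut and the smaller flank could not have changed the 5, as all 5 peaks pass that cut and lie inside the gene. With peaks of at least 4-fold, peak 2 alone was left: counts in the region, inside the gene, in the cluster and upstream became 1, the median fold 5.81, and no spacing could be given. Npas4 took rank 2 by density, after Pou3f2 with 2 summits, when genes with 2 were admitted, and rank 2 after Top2b (17.19 against 17.20 per 100 kb) with 5 kb added on either side. Joining at most 3 kb left a cluster of 3. Within 5 kb upstream there were 2 summits. Without the peaks inside Top2b the run at Npas4 took rank 1. Within 50 kb, 13 immediate early genes (35.1%) had an NMDA summit and 12 (32.4%) a control summit. The shares of all protein-coding genes in that window were 17.6% and 19.0%. A wider window could only keep or raise the gene counts, and a higher fold cut could only keep or lower the peak counts. The searches for heat shock elements under peaks were not run without genome sequence. No replicate could be left out, since a list merges the libraries of its condition. No paired analysis was possible because values per replicate are not in these lists. Depth limits cannot be given.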
